A study of Mus musculus with 6 samples.

Results

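Cd28, Ctla4 and Icos are neighbouring genes on mouse chromosome 1 that encode the related receptors by which T cells receive costimulatory and inhibitory signals. The summits of open chromatin described here are those from 100 kb before the first to 100 kb after the last annotated end of the 3 genes, an interval of 454 kb (chr1:60646388-61100322, GRCm38). Windows reaching 250 bp to either side of each summit were joined where they overlapped, which gave 58 regions out of 73702 on chromosomes 1 to 19 and X. The rule for the regions uses position and no score.

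The data are ATAC-seq peak summits from the thymus of mice aged 4 weeks. ATAC-seq uses a transposase to cut accessible DNA. The p53 AD/- group (3 libraries) combined the p53 allele AD, which the series calls dimeric, with a null allele, and the p53-null group (3 libraries, p53 -/-) carried no functional p53 allele. Both were germline genotypes on a mixed background, 50% BALB/C and 50% C57BL6, so all 6 libraries carried at least 1 null p53 allele and none was wild type. Replicates were numbered in order of deposition, and nothing in the labels states that they came from different mice.

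CD28 is the main costimulatory receptor of naive T cells and binds CD80 and CD86 on antigen-presenting cells. CTLA-4 binds the same ligands and restrains the response, and regulatory T cells carry it at high levels. ICOS binds ICOS ligand and acts in follicular helper and regulatory T cells after activation. In the thymus, CD28 is found on most thymocytes, and its signals contribute to the formation of regulatory T cells.

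The Ctla4 start is the one member start with a sequence in the RefSeq promoter table (GRCm38.p6), and it is shown because summits of all 6 libraries lay on it. The 250 bases before the annotated start, chr1:60908775-60909024 on the plus strand, read as follows, with matches to the searched motifs in capitals.
Ctla4: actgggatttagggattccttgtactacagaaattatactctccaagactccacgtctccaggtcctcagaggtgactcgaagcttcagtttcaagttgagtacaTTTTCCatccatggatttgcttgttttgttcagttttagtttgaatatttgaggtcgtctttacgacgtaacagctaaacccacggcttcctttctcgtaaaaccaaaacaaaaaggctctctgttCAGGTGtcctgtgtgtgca
The capitals mark the NFAT core GGAAAA (bases -145 to -140, minus strand) and the E-box CACCTG (bases -19 to -14, minus strand), counted back from -1 at the base before the start. Over 32619 promoters of the same length, GGAAAA was present in 20.5% and CACCTG in 17.3%, both strands searched. No match was found in this window to the ETS motif spelled CCGGAAG or to the RUNX motif spelled TGTGGT. The other E-box searched, spelled CAGCTG, and the GATA motif, spelled AGATAA, had none either. The same held for AP-1, spelled TGANTCA, for TCF/LEF, spelled TTCAAAG, for the cyclic AMP response element, spelled TGACGTCA, and for the NF-kB motif. In the 50 bases from the annotated start on, TATAAA occurred once, at bases 41 to 46, and 1.35% of promoters held it in that stretch on either strand. That motif was searched after the sequence had been seen. The motifs are matches of letters, and nothing here measured binding.

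Depth of detection differed between libraries. The AD/- libraries held 44496 to 60160 summits and the null libraries 54152 to 58019, with AD/- library 3 the shortest list. Each summit carries a score, a -log10 q-value from peak calling. Percentiles rank the scores of 1 library from 0 to 100, with the strongest summit at 100. Where a region had several summits in a library, the best-scoring one was used. Read depth is unknown. All 12 thymocyte markers searched, among them Cd3e, Cd4, Cd8a, Rag1 and Bcl11b, had a summit within 1 kb of the start in every library. The share was 54.3% over all protein-coding genes. For genes without a listed start, Cd4 among them, a summit within 1 kb of either end counted. Such a summit in all libraries was found for 2 of 6 B cell markers. The counts were 2 of 6 for myeloid and dendritic, 2 of 5 for erythroid, 2 of 6 for thymic epithelial and 1 of 6 for endothelial and mesenchymal markers. Of 6 regulatory T cell markers, 5 had a summit in all libraries, and Foxp3, which defines that lineage, had none in any library. All 5 markers of follicular or activated T cells had one in all libraries.

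The locus was dense in open chromatin in both genotypes. The 248 summits fell into 12.8 regions per 100 kb, compared with 2.64 per 100 kb over chromosome 1 between its first and last summit. The interval was placed around genes, whereas the chromosome average takes in every stretch. Other intervals around genes were not compared, so the density is not shown to be particular to this locus. AD/- libraries 1, 2 and 3 had 44, 43 and 35 summits in the locus, and null libraries 1, 2 and 3 had 37, 40 and 49. The counts of the genotypes overlapped, and the mean was 40.7 ± 4.93 for AD/- libraries and 42 ± 6.24 for null libraries (SD, n = 3 each; exact permutation p = 0.9, two-sided, where the smallest possible p is 0.10). The difference of -1.33 summits turned to 1.5 without AD/- library 3 and to 2.17 without null library 3. Per 1000 summits of the library, the locus held 0.806, 0.715 and 0.787 in AD/- and 0.683, 0.719 and 0.845 in null. On this scale as well the groups overlapped (exact permutation p = 0.9, n = 3 each).

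**Figure D1:**
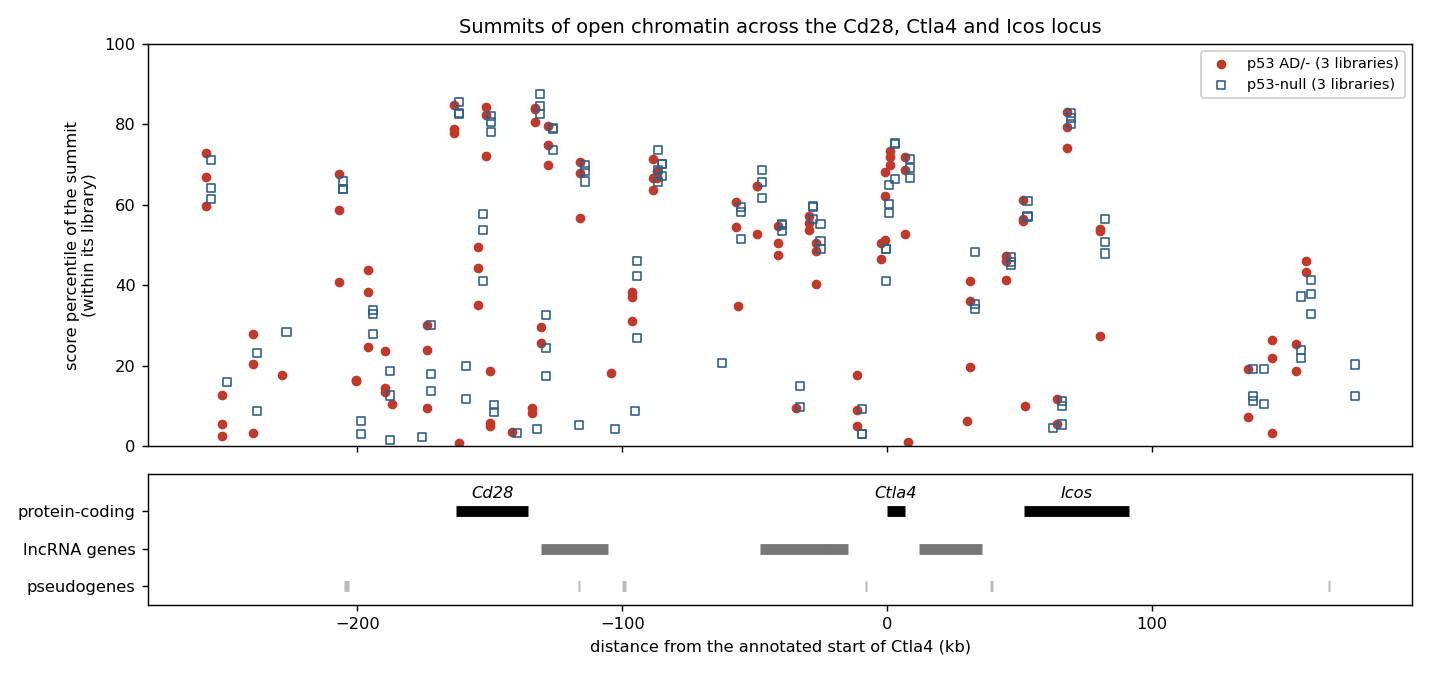
Score percentile within the library (y axis) of the best summit of every region and library, against the distance of the region from the annotated start of Ctla4 in kb (x axis). Filled circles are the 3 AD/- libraries and open squares the 3 null libraries, drawn slightly left and right of the region's position, and bars below give the annotated genes. The regions with percentiles near 80 lie at Cd28, just past it and inside Icos, in both genotypes.

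Summits of all 6 libraries were present in 27 of the 58 regions (46.6%), compared with 52.1% of all regions of the series. Another 9 regions (15.5%, against 10.3% in the series) had a summit in 5 libraries, and 11 (19%, against 16.4%) in 1 library alone. The 27 shared regions had a median percentile of 60.1, taken as the mean of the libraries, compared with 63.5 over all shared regions. Of the 27, 5 had a mean percentile of at least 75, whereas 34.5% of all shared regions did. The remaining 31 regions scored low, with a median of 18.3 for their best percentile. Of these, 2 reached a percentile of 50 in any library. Regions of a single library ranged from percentile 0.71 to 34.8.

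Cd28 (chr1:60746388-60773359) had its most prominent summit at the lower-coordinate end. The gene table gives no strand for Cd28 and Icos and no exons for any of the genes, so lower and upper end are used for both. As background, all 3 genes are transcribed towards increasing coordinates, which the promoter table states for Ctla4. The summit lay at 60746358, 60746360 and 60746422 in AD/- libraries 1, 2 and 3 and at 60746383, 60746390 and 60746358 in null libraries 1, 2 and 3. These positions spread over 64 bp. Its percentile was 78.9, 84.8 and 77.9 in the AD/- libraries and 82.6, 85.5 and 82.8 in the null libraries. AD/- libraries 1 and 3 lay below all null libraries, and AD/- library 2 lay among them. The mean was 80.5 ± 3.71 for AD/- and 83.6 ± 1.63 for null libraries (SD, n = 3 each).

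Inside Cd28, 12004 bp from the lower end, a region at 60758392 ranked close to the gene end, below it in 5 of 6 libraries. Positions of regions are medians over libraries, rounded down. Its percentile was 82.3, 84.3 and 72.2 in AD/- and 78.1, 80.5 and 82.2 in null. A weaker shared region at 60755586 had percentiles of 44.4, 49.6 and 35.2 in AD/- and 41, 57.8 and 53.7 in null. The genotypes overlapped at both. The other regions within the gene were found in 1 to 5 libraries. One of them, at 60749162, had summits in null libraries 1 and 3, at percentiles 11.8 and 20, and in no AD/- library.

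The highest-ranking region of the whole locus lay between Cd28 and its neighbour, the non-coding RNA gene 2310016D23Rik, at 60777152, 1308 bp before the annotated start of that gene. It had percentiles of 83.9, 84.1 and 80.5 in AD/- and 82.5, 87.6 and 84.6 in null. Within 2310016D23Rik (chr1:60778461-60803769), a region at 60781841 had 75, 79.6 and 70 in AD/- and 79.1, 73.7 and 78.9 in null. A further one at 60793925 had 70.7, 68 and 56.7 in AD/- and 69.9, 68.5 and 65.8 in null. In each case AD/- library 3 was the lowest of the 6.

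From there to Ctla4 most shared regions ranked in the middle to upper range, apart from those at 60813605 (26.8 to 46 over the 6 libraries) and 60898680 (3.1 to 17.8). At 60821481, in no annotated gene, the summit was on the same base in all 6 libraries, with percentiles of 66.7, 71.4 and 63.6 in AD/- and 65.6, 68.7 and 73.6 in null. At 60823115 the percentiles were 68.4, 66.7 and 66.8 in AD/- and 70.2, 67.2 and 70.2 in null. Both regions had a slightly higher mean in null, and the libraries of the genotypes overlapped at both. The lower end of Gm38137, a non-coding RNA gene (chr1:60860958-60894365), lay 171 bp from a region with 64.6, 64.8 and 52.7 in AD/- and 61.7, 65.7 and 68.6 in null.

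Within Gm38137 there were shared regions at 60868591, 60880301 and 60883004. The first had percentiles of 47.6, 54.7 and 50.5 in AD/- and 53.6, 55 and 55.2 in null. The second had 55.5, 57.3 and 53.8 in AD/- and 56.5, 59.6 and 59.5 in null, and the third had 48.4, 50.6 and 40.3 in AD/- and 55.2, 51 and 49 in null. At all 3 the groups overlapped, with the AD/- mean below the null mean. A region at 60852963, before this gene, had 54.4 and 60.6 in AD/- libraries 1 and 2 and 51.5, 59.4 and 58.3 in null, and no summit in AD/- library 3. That library instead had a summit of its own at 60853514, at percentile 34.8 and 522 bp from the nearest null summit.

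Ctla4 (chr1:60909025-60915832) carried 2 regions, both shared by all 6 libraries. The summit at the start lay 7 bp past the annotated start in all 3 AD/- libraries and null library 2, and at -17 and -8 bp in null libraries 1 and 3. It is thus next to the 250 bases printed above or within their last bases. Its percentile was 62.3, 68.2 and 51.3 in AD/- and 64.9, 58 and 60.1 in null. The highest and the lowest value were both from AD/- libraries, and the mean was 60.6 ± 8.58 for AD/- and 61 ± 3.51 for null libraries (SD, n = 3 each).

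The other Ctla4 region, at 60911004 inside the gene and 1979 bp from its start, ranked above the start itself. Its percentile was 69.9, 71.9 and 73.5 in AD/- and 66.5, 75.3 and 75.1 in null, and its summits spread over 1 bp. Just past the upper end, 844 bp away, a region at 60916676 had 68.7, 71.9 and 52.8 in AD/- and 66.7, 69.1 and 71.5 in null. AD/- library 3 stood below the other 5 libraries there. Another region, 1343 bp before the start, had 50.6 and 46.6 in AD/- libraries 1 and 2 and 41, 49.1 and 49 in null, and no summit in AD/- library 3.

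Between Ctla4 and Icos, 43.9 kb held 3 shared regions, of which the one beside Ctla4 is given above. The others, at 60941226 inside the non-coding RNA gene Gm34649 and at 60954995, stayed below percentile 50 in every library.

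Icos (chr1:60960773-61000322) had a moderate summit near its lower end and a prominent one deep inside the gene model. The gene model of Icos spans predicted as well as curated transcripts, and the starts of single transcripts were not used here. Its lower end may therefore not be the start in use. Which of the regions below lies at the start of the curated transcript was not determined. The region 492 bp inside the lower end had percentiles of 56, 61.2 and 56.4 in AD/- and 61, 56.9 and 57.3 in null. The region at 60977862, 17089 bp inside, had 79.4, 83.2 and 74.1 in AD/- and 80.2, 81.7 and 82.8 in null. All 6 libraries had its summit on exactly the same base. Its mean was 78.9 ± 4.54 for AD/- and 81.6 ± 1.33 for null libraries (SD, n = 3 each). Another shared region at 60990505 had 54, 53.4 and 27.5 in AD/- and 50.8, 47.9 and 56.4 in null, with AD/- library 3 far below the rest.

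**Figure D2:**
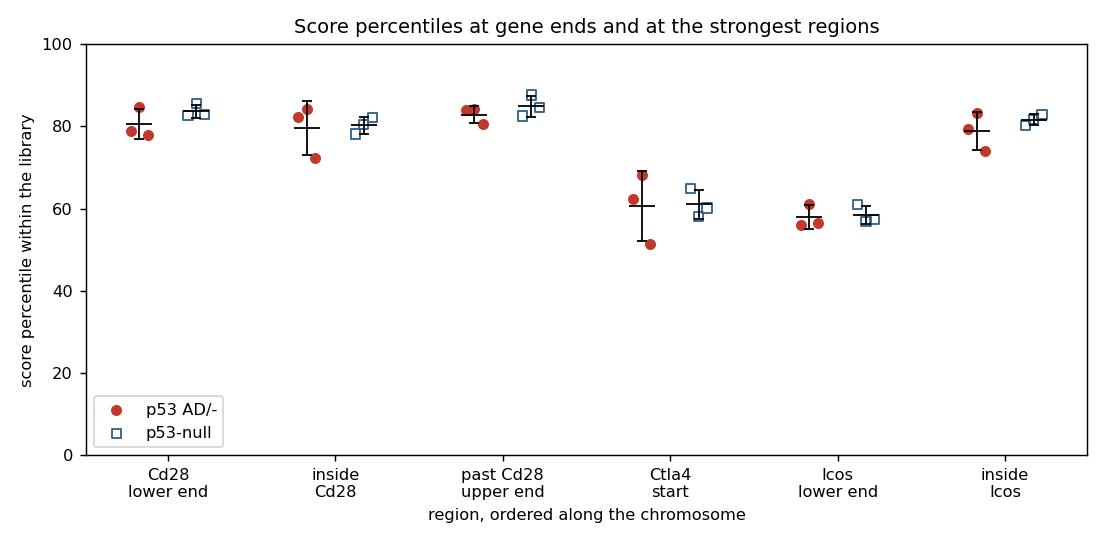
Score percentile within the library (y axis) at 6 regions ordered along the chromosome (x axis), with AD/- libraries as filled circles left of the null libraries as open squares. The horizontal line and bar give the mean and SD of 3 libraries. The genotypes overlap at every region shown, and the Ctla4 start and the Icos lower end sit near 60 while the others sit near 80.

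The 3 genes differed in the rank of their start or lower end. Cd28 stood at a mean percentile of 82.1 over the 6 libraries, Ctla4 at 60.8 and Icos at 58.1. Cd28 was above Ctla4 and Icos in 6 of 6 libraries. Ctla4 was above Icos in 5 of 6, and these neighbours in the order lay within the spread between libraries. Using the region inside Icos in place of its lower end would put Icos beside Cd28, so this order rests on the gene model.

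Before Cd28, a 99 kb stretch held 11 regions, 5 of them shared. The outermost, at 60652577, had percentiles of 66.9, 73 and 59.8 in AD/- and 61.4, 64.3 and 71.1 in null. At 60702856, 43531 bp before Cd28, the percentiles were 58.6, 67.6 and 40.8 in AD/- and 63.9, 64 and 65.8 in null. This region had the largest difference between means of all 27, with 55.7 ± 13.7 for AD/- and 64.6 ± 1.04 for null libraries (SD, n = 3 each), a difference of -8.87 points (95% interval -21.5 to 3.77). The 3 nearer shared regions ranked below percentile 44 in every library.

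Past Icos the chromatin was sparser. From 60990549, still inside Icos, to 61046210, past it, no library had a summit over 55661 bp. Gaps at least as long made up 8.07% of all gaps between neighbouring regions in the series, and the median gap was 6221 bp in the locus and 7932 bp in the series. The 100 kb after Icos held 6 regions, none of them shared by all 6 libraries. The region at 61068293 had 46.1 and 43.3 in AD/- libraries 1 and 2 and 37.8, 32.8 and 41.3 in null, and no summit in AD/- library 3.

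One region was found in every AD/- library and in no null library. It lay at 61055323 (chr1:61055071-61055630), 55001 bp past the upper end of Icos and in no annotated gene. Its summits were at 61055323, 61055321 and 61055380 in AD/- libraries 1, 2 and 3, at percentiles 26.3, 21.8 and 3.16 and scores of 13.1, 11.2 and 2.79. The nearest null summit was 4759 bp away. Regions of this kind made up 0.179% of all regions of the series, and the converse kind, in all null and no AD/- libraries, 0.418%, of which the locus had 0. A single region of 3 libraries against 3 cannot pass a test (Fisher's exact test gives at best p = 0.10). It was no longer called with scores of at least 5, when AD/- library 3 had no summit there, or with the 44496 best summits of each library, when AD/- library 2 had none.

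**Figure D3:**
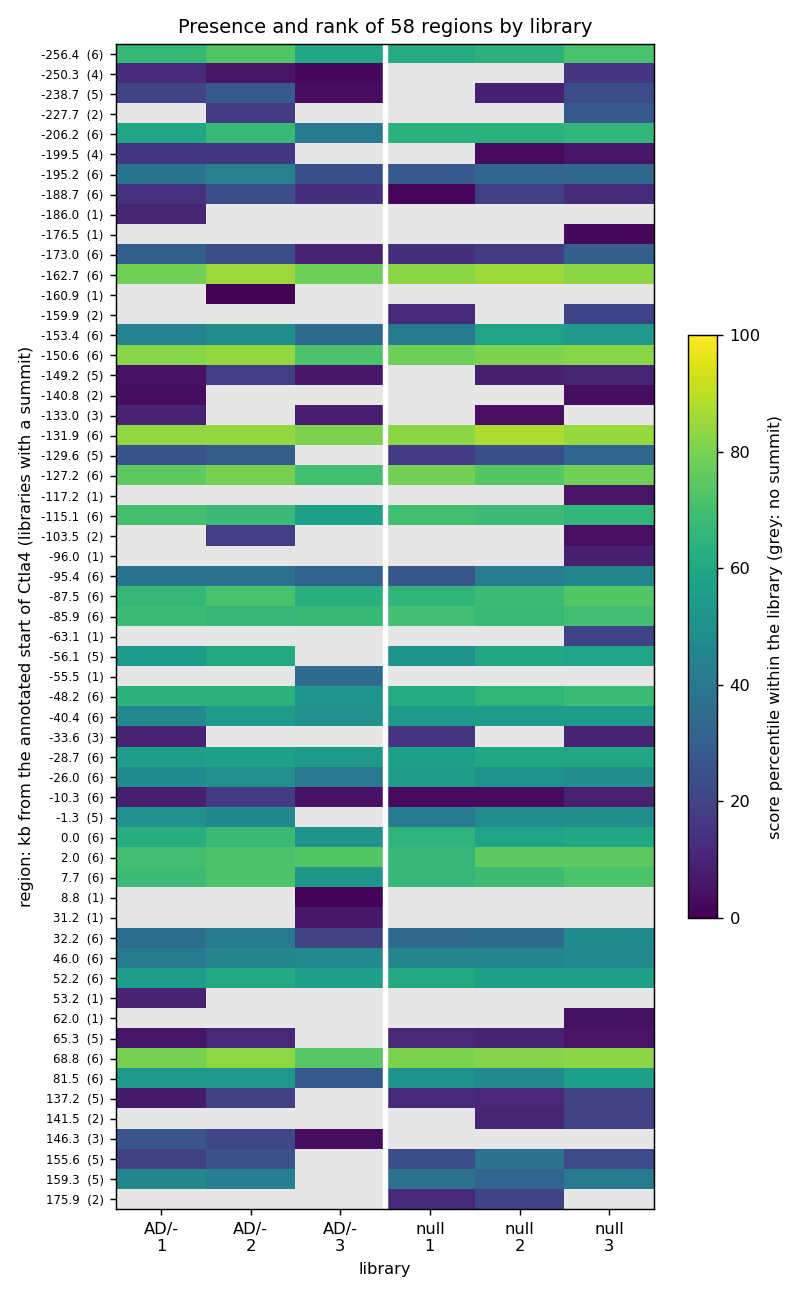
Each row is 1 of the 58 regions, labelled by its distance in kb from the annotated start of Ctla4 and, in brackets, the number of libraries with a summit, and each column is a library, AD/- left of null. Colour gives the score percentile within the library and grey means no summit. AD/- library 3 has more grey cells than the other libraries, and the row at 146.3 kb is the one with a summit in 3 AD/- libraries and no null library.

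Of the 9 regions found in 5 libraries, 7 lacked AD/- library 3 alone and 2 lacked null library 1 alone. In the series, 73.2% of such regions lacked AD/- library 3. That library had summits in 35 of the 58 regions, against 44 and 42 in AD/- libraries 1 and 2 and 37, 40 and 49 in null. It also had the lowest percentile in 19 of the 27 shared regions, and in 71.9% of all shared regions.

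The genotypes were then compared by score percentile with limma, fitted on all 38374 regions with summits in 6 libraries. None of these was called at an adjusted p of 0.05 (0 called, 0% of regions, Benjamini-Hochberg adjustment). An unadjusted p under 0.05 (limma) was found for 500 of them (1.3%). That share was 4.46% when percentiles were ranked among shared regions. In the locus 0 of 27 were called and 0 had an unadjusted p under 0.05. The difference was -3.11 points at the Cd28 lower end (95% interval -7.59 to 1.37), -0.405 at the Ctla4 start (-11.5 to 10.7) and -0.522 at the Icos lower end (-11.2 to 10.1). It was -0.658 at the region inside Cd28 (-6.51 to 5.19), -2.67 at the region inside Icos (-7.77 to 2.42) and -2.07 at the region past Cd28 (-5.95 to 1.81). All 6 had an adjusted p of 1 (limma). The intervals at the Ctla4 start and the Icos lower end span more than 10 points to either side of 0. All 6 differences are negative, so all 6 intervals reach further below 0 than above it, and all 6 include 0.

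The mean was lower in AD/- at 22 of the 27 shared regions, with a median difference of -2.4 points. Over all shared regions 75.1% were lower in AD/- and the median was -1.47 points. Without AD/- library 3 the count at the same 27 regions was 15, and the median was -0.29 points in the locus and 0.522 in the series. At 0 of 27 regions did all AD/- percentiles lie below or above all null percentiles, against 5.56% and 0.766% of all shared regions.

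**Figure D4:**
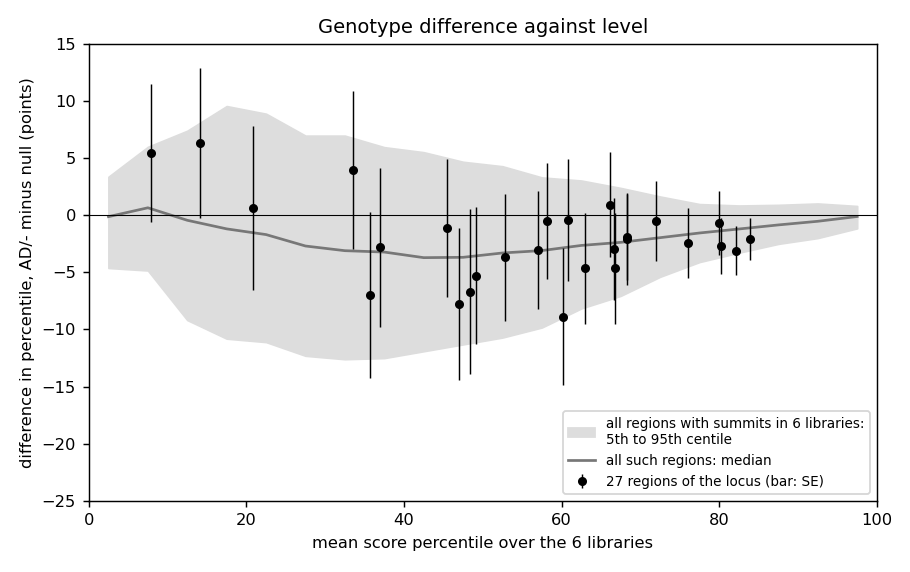
Difference in score percentile, AD/- minus null (y axis, points), against the mean percentile over the 6 libraries (x axis) for the 27 shared regions of the locus, with standard errors. The grey band and line give the 5th to 95th centile and the median of all 38374 shared regions at that level, in steps of 5 percentile points. The series median itself lies below 0 over most of the range, and 26 of the 27 regions lie within the 5th to 95th centile of their step.

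Summit positions were close between libraries. The best summits of a shared region spread over a median of 42 bp in the locus and 49 bp in the series, and over at most 50 bp in 17 of 27 regions of the locus and 52.3% of those of the series. At 2 of the 27 the base was the same in all 6 libraries, compared with 1.73% in the series. The widest spread, 621 bp, was at 60898680, a low-ranking region whose percentiles were 4.94 to 17.8 in AD/- and 3.1 to 9.14 in null.

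Most of the genes through which these receptors act had a summit at the start or at a gene end. A list of 41 genes held the CD28 family, their ligands, related coreceptors and the kinases, adaptors and transcription factors of the pathway. A summit was sought within 1 kb of the start, or of either end for the 10 genes without a listed start. All 6 libraries had one for 34 of the 41 genes (82.9%), against 54.3% of all protein-coding genes. The 10 genes measured at either end, which leaves more room for a summit, were all among the 34. How many of all protein-coding genes were measured that way is not given here. The list includes the 3 genes of the locus and was chosen with earlier results of these data known. None of the 41 genes had such a summit in all libraries of one genotype and no library of the other. Of protein-coding genes, 0.0231% did for AD/- and 0.0277% for null. No summit was found for the ligand genes Cd80, Pdcd1lg2 and Vtcn1, for the adaptor gene Grap2 and for Il2, the cytokine gene induced by costimulation. Cd276, a ligand of the B7 family, had one in 3 libraries (AD/- 2, AD/- 3 and null 2), and Havcr2, which encodes TIM-3, in AD/- library 2 alone. The lack of a summit does not show that a start was closed.

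Among the 34 genes with a shared region at the start or at either end, Cd28 ranked 16, Ctla4 30 and Icos 31 by mean percentile. The median of the 34 was 81.3. Over the 11677 protein-coding genes with such a region it was 89.1, and Cd28, Ctla4 and Icos all lay below that value. Cd28 and Icos were measured at the lower end, and the rank of Icos rests on its gene model. Malt1 and Bcl10, which link the receptors to NF-kB, stood at the top with 99.5 each. The inhibitory relatives Pdcd1 and Btla stood at 69.2 and 68.1, and Nfatc2, an NFAT family transcription factor, was the lowest at 17.7. Pdcd1 had 70.3, 73.2 and 56.4 in AD/- and 73.7, 69.6 and 71.6 in null. Cd86, a ligand of CD28 and CTLA-4 on antigen-presenting cells, had 40.4, 37.9 and 27.5 in AD/- and 18.2, 19.5 and 35.3 in null, where the groups overlapped. None of the 34 passed limma's test (lowest unadjusted p = 0.1), and the mean was lower in AD/- at 25 of them, compared with 71.6% of all start regions.

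The start regions most like those of the 3 genes, by Euclidean distance over the 6 percentiles, belonged for Cd28 to Cacng2, Adat1 and Osm (2.45 to 2.84 points). For Ctla4 they were Barx2, Ankrd29 and Klhl23 (4.25 to 4.98) and for Icos they included Col23a1 (4.09) and Sv2a (5.98). This likeness is one of rank in 6 libraries and covers nothing else. For Cd28 and Icos the region compared was the one at the lower end, which for Icos rests on the gene model.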

How the data were processed

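ATAC-seq was run on 6 thymus libraries. Per the submitters' processing notes, the tools were MACS2 2.1.2, Picard 2.9.0, Bowtie2 2.3.4.2 and Trim Galore 0.4.5 and the build was GRCm38; their roles, their settings and any shift of reads for the transposase are not given in the sources. The authors deposited 1 list of summits per library, not pooled. The score was read from the deposited values as the −log10 of a q-value, since the lowest are 1.30 to 1.39 and a q-value of 0.05 gives 1.30. Read depth is unknown, so scores were ranked within a library.

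Summits were merged into regions and placed against RefSeq gene ends (Python 3.11.15, pandas 2.3.3). Counts were compared with the exact permutation test over 20 relabellings (SciPy 1.17.1). Percentiles were compared with limma 3.58.1 (R 4.3.3), with a trend on the mean. P-values measure the spread between these libraries, which may be technical. The fit was tested on simulated data for AD/- against null with 38374 regions: of 200 regions shifted by 25 points, 40.5% were recovered, with 1 false call. The shifted regions were drawn from the middle of the percentile range, and the simulated noise was independent between regions, with no library low as a whole. The share recovered therefore does not cover the higher-ranking regions of the locus.

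Every gene annotated in the locus was considered. Values per library are given for shared regions that reach percentile 50 in any library, for genotype-specific regions and at the gene starts, together with list members lacking a start summit in any library and the 3 genes most like each member, leaving out genes without a proper symbol; some of what this rule selects is not reported here. The members and lists were chosen with earlier results of these data known.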

Additional observations from a re-analysis of the deposited data

How the results depend on the processing

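No paired analysis was possible because the labels give no replicate numbers. The locus held 42 to 62 regions over the alternatives with all 6 libraries (extensions of 100 and 500 bp, scores of at least 5, lists of equal length, flanks of 50 kb, close summits counted once), and 53 to 59 with a library left out. The count of shared regions was 24 to 28 and 27 to 33. The AD/- region past Icos was not called (0) with scores of at least 5 or with lists of equal length. With flanks of 50 kb the count was also 0, since the region then lay outside the interval. Leaving out a library gave 1 to 2 AD/- specific regions, the 2 without null library 3, when 2 null libraries lacking a summit suffice by construction. When 2 of 3 libraries sufficed, null-specific regions numbered 3 and AD/- specific regions 1. The share of all regions called under that rule is not given here, so these counts cannot be set against the series. With a library left out, null-specific regions numbered 0 to 1, the 1 without null library 1, 2 or 3, when 2 libraries suffice by construction.

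The difference in summits turned to 2.33 with lists of equal length (exact permutation p = 0.4, two-sided) and ranged from -3.83 to 2.17 with a library left out. limma called 0 regions of the locus in all of its alternatives. In the series it called 1 with quantile-normalized log2 scores and 0 to 1 with a library left out, the 1 without AD/- library 1 or null library 3. Without AD/- library 2, 2 of 27 regions of the locus had an unadjusted p under 0.05 (limma), as did 7.83% of the regions of the series. The series share was 1.3% as reported. The differences at the Ctla4 start, the Icos lower end and the region inside Cd28 turned positive when ranked among shared regions (3.48, 2.66 and 1.35 points) and on log2 scores (0.163, 0.126 and 0.0972). With a library left out they ranged from -4.22 to 4.24, from -2.18 to 0.778 and from -3.02 to 3.04. Ranked among shared regions and on log2 scores, 17 of 27 regions were lower in AD/-, against 22 as reported. In the series 50.3% and 50.8% were lower on these scales, against 75.1% as reported. The series median then lay near 0 (-0.0161 points and -0.00305). The costimulation list had 29 genes within 500 bp. Read depth is unknown, so a missing summit cannot be told from one below detection.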
